A study of Rattus norvegicus with 21 samples.

Results

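The Fos and Jun family of transcription factor genes was followed through rat pancreatic islets cultured under high glucose and palmitate, a setting called glucolipotoxicity (GLT). The genes were taken by name: rows of the deposited count table whose symbol was Fos, Fosb, Fosl1, Fosl2, Jun, Junb or Jund. This gave 6 of the 17025 gene rows, with no row under the symbol Fosb. A row with gene ID 100360880, which RefSeq names Fosb, was found after the files were seen and is described beside the 6, outside every count of them.

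RNA was sequenced from Sprague Dawley islets in 21 libraries. Each of 3 islet preparations pooled 8 animals and was split over the culture conditions, so that libraries of a preparation share their animals. Control cultures had 11 mM glucose without palmitate, and GLT cultures had 27 mM glucose and 300 µM palmitate. Condition 1 was 3 h control, condition 4 was 24 h GLT, conditions 5 and 6 were GLT with compound D for 3 h and 24 h, and conditions 7 and 8 were GLT with compound E for 3 h and 24 h, both compounds at 300 nM. Conditions 2 and 3 are named differently by the sample records and by the deposited sample sheet: condition 2 is 24 h control by the record and 3 h GLT by the sheet, and condition 3 is the reverse. Each condition had 3 libraries, 1 per preparation, except condition 7 (1 library, preparation 2) and condition 8 (2 libraries, preparations 1 and 2). The structures and targets of the compounds, and the animals' age and sex, were not given in the sources used here.

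AP-1 is a pair of basic leucine zipper proteins, either a Jun protein with a Fos protein or 2 Jun proteins together. The pair binds the sequence known as the TRE, and with partners of the CREB and ATF family it can bind the related CRE. Fos, Fosb, Jun and Junb are classical immediate early genes, switched on within minutes of a stimulus without new protein synthesis, through kinases of the MAPK pathways acting on factors already bound at their promoters. Fosl1 and Fosl2 encode Fra-1 and Fra-2, which lack the strong transactivating end of Fos and usually come on later and stay longer. Junb and Jund can hold back the growth-promoting activity of Jun, and Jund is expressed at a more even level in many resting cells. In beta cells, glucose, calcium entry and cAMP are known inducers of Fos and Junb.

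The sequences just upstream of 4 of these genes, those found by symbol that had an entry, are shown because CRE and TRE sites are what AP-1 and CREB proteins bind. RefSeq (build GRCr8) gave the 250 bases before the start of 5 of the 7 genes, and Fos and Jun had no entry. Both strands were searched for the CRE (TGACGTCA), its core TGACG, which also lies inside the CRE, the TRE (TGANTCA), the CArG box bound by serum response factor, and the TATA box (TATAAA). Capitals mark the matches, written on the strand of the gene.
Fosl1, chr1:212183635-212183884, plus strand: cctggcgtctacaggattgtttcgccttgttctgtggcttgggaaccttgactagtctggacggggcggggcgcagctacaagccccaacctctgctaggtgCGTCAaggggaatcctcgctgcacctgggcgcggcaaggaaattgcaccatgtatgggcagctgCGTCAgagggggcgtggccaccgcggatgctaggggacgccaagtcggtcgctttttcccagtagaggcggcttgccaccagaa
Fosl2, chr6:30039270-30039519, minus strand: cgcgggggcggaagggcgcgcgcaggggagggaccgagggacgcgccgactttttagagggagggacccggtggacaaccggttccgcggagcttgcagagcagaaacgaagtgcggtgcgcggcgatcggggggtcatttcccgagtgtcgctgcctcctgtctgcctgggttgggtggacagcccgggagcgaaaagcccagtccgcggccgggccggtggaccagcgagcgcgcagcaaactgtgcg
Junb, chr19:40080876-40081125, plus strand: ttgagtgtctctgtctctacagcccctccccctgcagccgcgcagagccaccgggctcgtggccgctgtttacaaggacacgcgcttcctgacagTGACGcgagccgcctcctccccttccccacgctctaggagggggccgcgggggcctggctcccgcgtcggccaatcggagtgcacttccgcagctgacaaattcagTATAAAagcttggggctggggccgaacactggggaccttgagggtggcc
Jund, chr16:18769772-18770021, minus strand: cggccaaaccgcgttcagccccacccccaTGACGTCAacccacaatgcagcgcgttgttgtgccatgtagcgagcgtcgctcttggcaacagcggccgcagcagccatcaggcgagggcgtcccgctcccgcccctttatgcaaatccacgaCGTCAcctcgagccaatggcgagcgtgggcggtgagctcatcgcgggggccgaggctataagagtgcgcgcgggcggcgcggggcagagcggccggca
Jund had a full CRE at 221 bases before its start and 3 core matches, those at 221 and 218 bases lying within that CRE and the other at 98 bases. Fosl1 had core matches at 148 and 84 bases, on the opposite strand. Junb had a core match at 155 bases and a TATA box at 49 bases. The Fosl2 window held none of the searched letters, and no window shown held a TRE or a CArG box. The Fosb window, not shown, held a TATA box match at 180 bases and none of the other searched letters. Of 33469 rat promoter windows of this length, 1.59% held a CRE, 18.2% the core, 6.34% a TRE, 1.5% a CArG box and 12.9% a TATA box. A match in these letters is a description and not evidence of binding.

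Levels are in CPM, gene counts per M (mega) counts in the tested genes after TMM scaling. The libraries held between 22.3 M and 40.2 M gene counts, with a median of 27.8 M, so that 3 counts, taken as the detection limit, were 0.0804 to 0.144 CPM. Libraries of a condition differed by more than counting error. The islet identity of the libraries was borne by the insulin genes, with 9.32% to 45.9% of the counts, while summed acinar markers stayed at 5.59 to 24.8 CPM. Summed endothelial markers (7 genes found) ran from 161 to 217 CPM in conditions 1, 2, 5 and 7 and from 25.3 to 104 CPM in conditions 3, 4, 6 and 8, and none was at 0 in every library. Summed red cell markers (4 genes found) ran from 4.03 to 14.2 CPM in the former and from 0.377 to 1.34 CPM in the latter. On both lists condition 2 lay in or near the range of the undisputed 3 h groups, and condition 3 in or near that of the undisputed 24 h groups. The condition 3 library of preparation 2 stood apart, with 23.4% of reads aligned more than once and 0.0333% of counts in the ribosomal gene Rn45s. In preparation 1, Rn45s took 7.37%, 7.88% and 7.23% of counts in conditions 1, 5 and 6, and 1.52%, 1.37% and 1.57% in conditions 2, 3 and 4. The insulin genes took 12.7%, 11.5% and 11.7% in the former and 40.2%, 34.9% and 23.0% in the latter. Condition 6 against 4 and condition 2 against 1 therefore set unlike libraries of preparation 1 against each other. Beyond a fit with the ambiguous read share as a term, the part of this split was not tested.

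All 6 genes, and Fosb, were expressed well enough to be tested. Of the 6, Fos had the widest fold range, from 2.97 CPM in preparation 2 of condition 3 to 160.6 CPM in preparation 3 of condition 2. Fosl1 lay between 1.32 and 19.6 CPM, and Fosl2 between 5.87 and 131 CPM. Junb reached 967 CPM, and its lowest library was at 72.0 CPM. Jund moved the least, between 45.6 and 230.4 CPM. Fosb had few reads, 7 to 1275 per library, or 0.270 to 44.1 CPM. The 3 Jun genes have a single exon each, which allows a comparison per length (RefSeq lengths of 3094, 1785 and 1679 bases for Jun, Junb and Jund). On that scale the level of Junb was above those of Jun and Jund in 20 of 21 libraries, and the level of Jund was above that of Jun in 21 of 21.

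**Figure D1:**
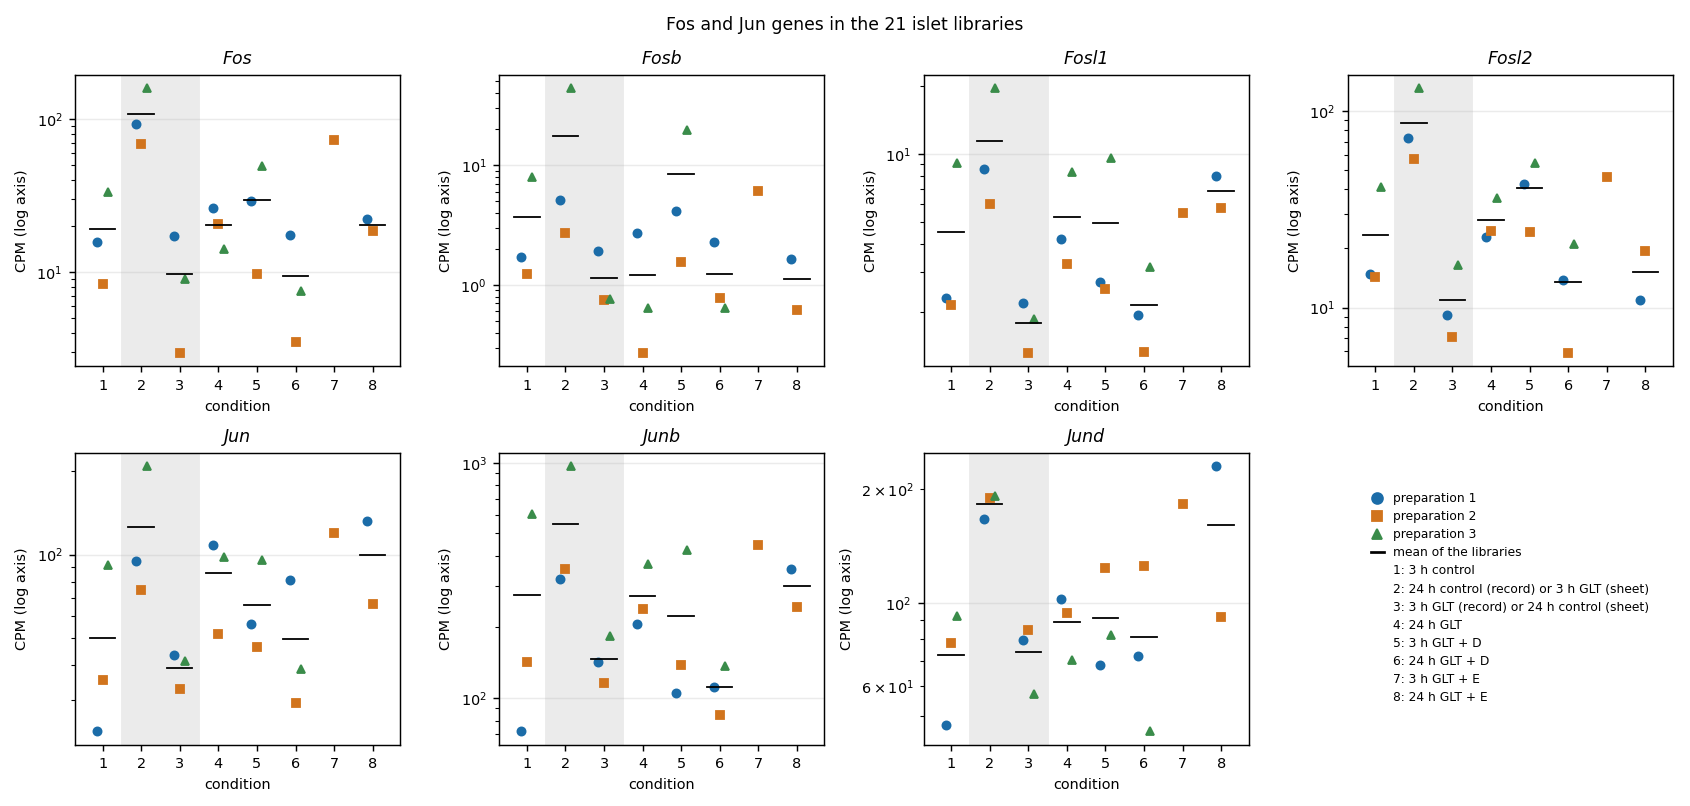
CPM (log axis) of the 7 genes by condition, with 1 marker per library shaped by preparation and a bar at the mean of each condition; the shaded conditions 2 and 3 are those whose names the record and the sheet dispute. Condition 2 holds the highest library of Fos, Fosb, Fosl1, Fosl2, Jun and Junb, and Jund is highest in a condition 8 library.

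Compound D at 24 h was compared with 24 h GLT alone, groups that both sources name alike, to ask how the compound changes gene expression under glucolipotoxic stress. Fosl1 and Fosl2 fell, by 2.41-fold and 2.22-fold. Fos, Junb and Jun were lower in each preparation without passing the test, and Jund and Fosb had no common direction. Of the 6 genes 2 passed, both lower, against 2.12% of the 12576 genes tested called lower. The median log2 fold change of the 6 was -1.20, and that of all tested genes 0.01. Of the cell type markers, 1 of 9 beta genes passed, as higher, and none of the other lists. In a pooled tissue such as this, fewer expressing cells and less RNA per cell cannot be told apart.

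Among the Fos genes, Fosl1 (Fra-1) had 4.22, 3.28 and 8.32 CPM in preparations 1, 2 and 3 of 24 h GLT, and 1.94, 1.34 and 3.16 CPM with compound D. Every library with compound D was below every library without it, though the nearest libraries were only 3.16 and 3.28 CPM. The log2 fold change was -1.27 (SE 0.31, adjusted p = 0.0348, edgeR's quasi-likelihood test with Benjamini-Hochberg adjustment, as for all adjusted p-values here). Fosl2 (Fra-2) had 23.0, 24.7 and 36.2 CPM under 24 h GLT and 13.8, 5.87 and 20.97 CPM with compound D. Again the groups did not overlap, and the drop was deepest in preparation 2 (log2 difference -2.06, against -0.73 and -0.78 in preparations 1 and 3). The fitted change was -1.15 (SE 0.29, adjusted p = 0.0381). Fos itself had 26.3, 20.6 and 14.3 CPM under 24 h GLT and 17.6, 3.50 and 7.51 CPM with compound D. It was lower in 3 of 3 preparations, but the groups overlapped and the change of -1.38 (SE 0.53) did not pass (adjusted p = 0.178). Fosb, an immediate early gene like Fos, had low counts at 24 h, with 0.270 to 2.71 CPM under GLT and 0.643 to 2.29 CPM with compound D (log2 0.20, 95% interval -1.79 to 2.20).

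Among the Jun genes, Junb came nearest to the threshold. It had 206, 239 and 369 CPM under 24 h GLT and 111, 84.4 and 137 CPM with compound D, groups that did not overlap (log2 -1.24, SE 0.39, adjusted p = 0.0973). Jun, the founding member and a substrate of the JNK kinases, had 109, 51.8 and 98.1 CPM under GLT and 80.9, 29.4 and 38.7 CPM with compound D. Each preparation was lower with the compound, yet the groups overlapped (log2 -0.76, 95% interval -1.59 to 0.07). Jund had 102, 93.7 and 70.4 CPM under GLT and 72.3, 125 and 45.6 CPM with compound D, higher with the compound in preparation 2 and lower in the others (log2 -0.17, 95% interval -0.96 to 0.61).

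The calls for Fosl1 and Fosl2 rest on the 3 preparations and on the preparation term. Leaving out any 1 preparation ended both (adjusted p between 0.0660 and 0.224 for Fosl1, and between 0.120 and 0.178 for Fosl2), as did leaving out the preparation term (adjusted p = 0.411 and 0.400), adding the share of ambiguous reads as a term (0.0660 and 0.0501) and fitting only the groups compared (0.0509 and 0.0865, with Junb called instead, 0.0199). That of Fosl2 also ended when scaled by library size alone (0.227) and in the 15 undisputed libraries (0.143). DESeq2 kept both calls and also called Junb as lower (log2 -1.25, adjusted p = 0.0272 in DESeq2), with 908 of all genes called. Without preparations 1, 2 and 3 in turn, 0, 234 and 87 of all genes were called, against 513 with all preparations. The direction was lower for Fosl1 and Fosl2 in each of the 13 alternatives.

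With compound E at 24 h, no gene of the family changed past the test against GLT alone, and 5 of the 6 had a positive fitted difference. Of the 6 genes 0 passed, with 1 at an unadjusted p below 0.05, and DESeq2 also called 0 of them. Among all tested genes 0% were called by edgeR and 0 by DESeq2, with 813 at an unadjusted p below 0.05. Fosl1 had 7.98 and 5.78 CPM with compound E in preparations 1 and 2, against 4.22 and 3.28 CPM in the same preparations under GLT alone (log2 0.92, SE 0.34, adjusted p = 0.566). Junb had 352 and 244 CPM against 206 and 239 CPM (log2 0.59, 95% interval -0.33 to 1.52). Fos, at 22.4 and 18.7 CPM, was below its GLT value in both preparations, while the fitted change was 0.17 (95% interval -1.04 to 1.38) with TMM scaling and -0.16 when scaled by library size alone. Fosl2 had 10.9 and 19.3 CPM against 23.0 and 24.7 CPM and was the only one of the 6 with a negative fitted change (log2 -0.49, 95% interval -1.19 to 0.20). Jund was at 230.4 CPM in preparation 1 and at 91.6 CPM in preparation 2, against 102 and 93.7 CPM, so that its rise lay in preparation 1 alone (log2 0.83, 95% interval -0.05 to 1.71). Jun was at 132 and 66.6 CPM against 109 and 51.8 CPM (log2 0.42, 95% interval -0.51 to 1.34). Scaling by library size alone put the all-gene median at -0.36 here and turned Jun to -0.01. Without preparation 2, which leaves a single library with compound E, assumed to vary like the other groups, Fosl2 passed as lower (log2 -1.02, adjusted p = 0.0295) and Jund as higher (adjusted p = 0.0269). In that fit 3241 of all genes were called. The intervals reach a 2-fold change or more in at least 1 direction for each of these genes, so the data do not show that compound E leaves the family unchanged.

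Set directly against each other at 24 h, at the same dose, the compounds gave different levels of Fosl1 and Junb. Fosl1 was 4.57-fold higher with compound E than with compound D (7.98 and 5.78 CPM against 1.94 and 1.34 CPM in preparations 1 and 2, log2 2.19, SE 0.34, adjusted p = 0.00345). Junb was 3.57-fold higher (352 and 244 CPM against 111 and 84.4 CPM, log2 1.84, SE 0.43, adjusted p = 0.0321). For both genes each compound E library was above all 3 compound D libraries. All 6 genes had a positive fitted difference and 2 passed, against 1.83% of all genes called higher. The medians were 1.36 for the 6 and 0.00 for all tested genes. Fos (log2 1.55, 95% interval 0.32 to 2.79), Jun (1.18, 0.26 to 2.09), Jund (1.00, 0.11 to 1.88) and Fosl2 (0.66, -0.04 to 1.36) did not pass (adjusted p from 0.160 to 0.305). The 2 shared preparations disagreed for Fosl2 (log2 differences -0.34 in preparation 1 and 1.70 in preparation 2) and for Jund (1.67 and -0.45). The fitted sign turned in 1 of 13 alternatives for Fosl2 and in 2 for Jund. Fos, Fosl1, Jun and Junb were higher with compound E in both preparations. Fosb was at 1.63 and 0.615 CPM with compound E against 2.29 and 0.777 CPM with compound D, lower in both preparations. Its fitted log2 change was nevertheless 0.20 (95% interval -2.07 to 2.47), and the sign turned in 5 of 13 alternatives, scaling by library size alone among them. The 3 comparisons at 24 h share their groups and are not independent of one another.

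The condition 8 library of preparation 1 had the lowest TMM factor (0.682). Without it the Fosl1 difference was 2.16 (adjusted p = 0.0518) and that of Junb 1.49 (adjusted p = 0.303), and without preparation 1 or without the preparation term neither passed (0.281 and 0.276 for Fosl1, 0.369 and 0.366 for Junb). Junb was also lost without preparation 3 (0.0760), with the ambiguous read share as a term (0.119), when scaled by library size alone (0.0841) and in the 15 undisputed libraries (0.0829). Jund passed without preparation 2 (0.00413), where 1 compound E library remained, assumed to vary like the other groups, and 4543 of all genes were called, against 378 with all preparations. A fit of only the groups compared gave an adjusted p of 1.0 for both Fosl1 and Junb and called 0 of all genes.

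**Figure D2:**
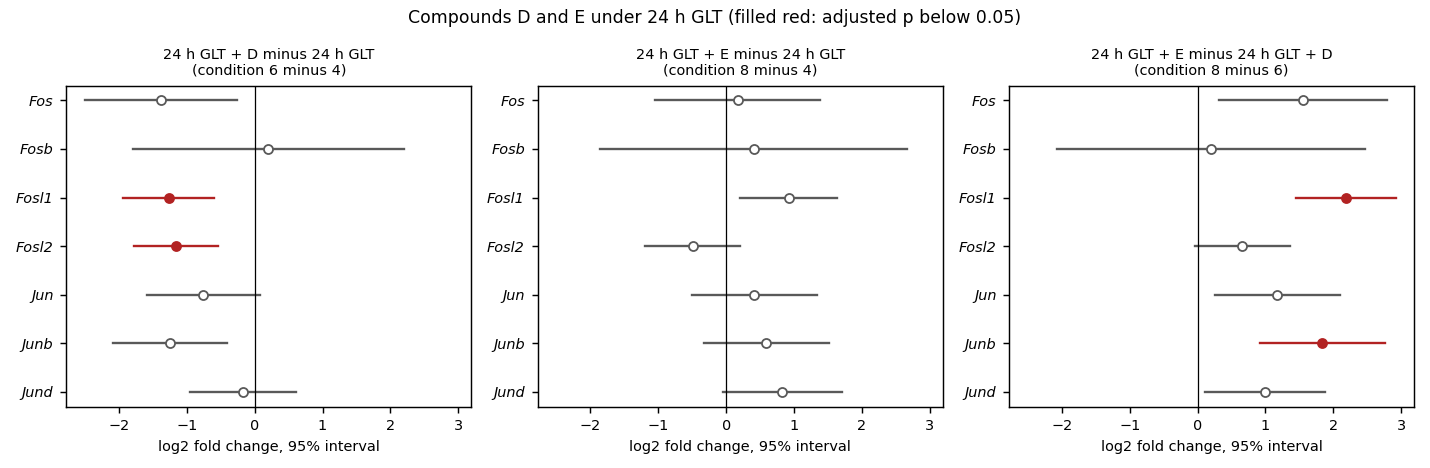
Fitted log2 fold changes with 95% intervals of the 7 genes for compound D against 24 h GLT, compound E against 24 h GLT, and compound E against compound D at 24 h, with filled red points where the adjusted p was below 0.05. Fosl1 and Fosl2 are filled on the negative side for compound D, no gene is filled for compound E against GLT, and Fosl1 and Junb are filled on the positive side between the compounds.

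From 3 h to 24 h under GLT plus compound D, Fosl2 fell and the other genes had lower fitted levels at 24 h. Fosl2 went from 42.5, 24.2 and 54.7 CPM at 3 h to 13.8, 5.87 and 20.97 CPM at 24 h, 3.12-fold lower with no overlap (log2 -1.64, SE 0.29, adjusted p = 0.00541). The call was lost without preparation 1 (adjusted p = 0.0714), without preparation 3 (0.0997) and without the preparation term (0.110). Fos went from 29.3, 9.70 and 49.5 CPM to 17.6, 3.50 and 7.51 CPM (log2 -1.59, SE 0.53, adjusted p = 0.0897), and Fosl1 had a log2 change of -1.04 (SE 0.31, adjusted p = 0.0630). Both were lower in 3 of 3 preparations. Jun, Junb and Jund differed in direction between preparations. In all, 1 of the 6 passed, against 3.05% of all genes called lower. Over the same interval 4 of 7 endothelial, 3 of 3 tested red cell, 1 of 4 duct and 1 of 9 beta markers fell and 2 of 8 stellate markers rose, and their part in the Fosl2 result was not tested.

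At 3 h, GLT with compound D was set against 3 h control, a contrast that changes medium and compound at once. Of the 6 genes 0 passed in edgeR, against 0.103% of all genes called by edgeR. At an unadjusted p below 0.05 there were 1 of the 6 and 817 of all genes. DESeq2 called 0 of the 6 and 109 of all genes. Fosl2 had 14.8, 14.3 and 40.9 CPM in control and 42.5, 24.2 and 54.7 CPM with GLT and compound D, higher in each preparation although the groups overlapped (log2 0.90, SE 0.29, adjusted p = 0.414). Fos, Fosl1 and Jun were also higher in 3 of 3 preparations, with log2 changes of 0.56, 0.16 and 0.44, and Junb had -0.14. The 95% intervals reach 1.65 for Fos and 1.51 for Fosl2, so these libraries allow a rise of that size.

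The highest library of each gene but Jund lay in condition 2, so what these levels stand for depends on the name of that condition. Against 3 h control, Fos, Fosl1 and Fosl2 rose in condition 2, a difference that reads as 24 h against 3 h in control medium by the record and as GLT against control at 3 h by the sheet. Fos had 93.1, 68.7 and 160.6 CPM in condition 2 and 15.8, 8.37 and 33.3 CPM in 3 h control, 6.01-fold higher with no overlap (log2 2.59, SE 0.53, adjusted p = 0.0168). Fosl2 had 73.2, 56.9 and 131 CPM, 3.93-fold above the control libraries given above, again with no overlap (log2 1.97, SE 0.29, adjusted p = 0.00186). Fosl1 had 8.60, 6.04 and 19.6 CPM against 2.32, 2.16 and 9.10 CPM, higher in each preparation but with overlapping groups (log2 1.44, SE 0.30, adjusted p = 0.0189). The 3 that passed stood against 1.96% of all genes called higher, and the medians were 1.38 for the 6 and -0.02 for all tested genes.

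The Jun genes moved the same way in condition 2 without passing. Jund had 167, 189 and 192 CPM in condition 2 and 47.5, 78.0 and 92.1 CPM in 3 h control, groups that did not overlap (log2 1.32, SE 0.37, adjusted p = 0.0852). Jun had 95.1, 74.6 and 208 CPM against 23.1, 35.4 and 91.8 CPM (log2 1.32, SE 0.39, adjusted p = 0.108). Junb had 319.6, 352 and 967 CPM against 72.0, 142 and 608 CPM (log2 1.21, SE 0.39, adjusted p = 0.149). In preparation 3 the control libraries of Jun and Junb were already above or near the condition 2 libraries of the other preparations. Fosb was at 5.105, 2.71 and 44.1 CPM against 1.70, 1.24 and 8.01 CPM (log2 1.96, SE 0.84, adjusted p = 0.311). Scaling by library size alone, which put the all-gene median at -0.29 here, left 0 of the 6 past the test. DESeq2 called 5 of the 6, and 581 of all genes. All 3 calls were lost without preparation 1, Fosl1 was lost without preparation 2, and Fos and Fosl2 without preparation 3 (adjusted p from 0.0815 to 0.418 for the lost calls), and all 3 were lost without the preparation term (0.0930 to 0.468).

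In condition 3 the fitted differences from the same controls were below 0 for all 6 genes. The comparison reads as GLT against control at 3 h by the record and as 24 h against 3 h of control by the sheet. Fosl1, at 2.19, 1.32 and 1.86 CPM, and Fosl2, at 9.15, 7.12 and 16.5 CPM, were lower in 3 of 3 preparations (log2 -1.01 and -1.02, adjusted p = 0.171 and 0.124). Fos, at 17.4, 2.97 and 9.01 CPM, was lower in preparations 2 and 3 only. Of the 6, 0 passed in edgeR, against 0.692% of all genes called by edgeR. At an unadjusted p below 0.05 there were 2 of the 6 and 1627 of all genes. DESeq2 called 1 of the 6 and 389 of all genes.

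The mean levels of Fos, Fosl1 and Fosl2 at 24 h GLT lay between those of conditions 2 and 3. Against condition 2 (24 h GLT against 24 h control by the record, 24 h against 3 h of GLT by the sheet) Fos, Fosl1 and Fosl2 fell. Their log2 changes were -2.23 (SE 0.53, adjusted p = 0.0202), -1.05 (SE 0.30, adjusted p = 0.0425) and -1.56 (SE 0.29, adjusted p = 0.00532), and 3 of 6 stood against 4.89% of all genes called lower. Fosb fell as well (log2 -3.30, SE 0.95, adjusted p = 0.0433), on low counts and with the largest difference in preparation 3. In this comparison 5 of 7 endothelial, 3 of 3 tested red cell, 3 of 9 beta and 1 of 8 stellate markers were lower too, 3 of 8 stellate markers were higher, and their part in the result was not tested. Against condition 3 (24 h against 3 h of GLT by the record, 24 h GLT against 24 h control by the sheet) Fosl1 and Fosl2 rose, by 1.40 (SE 0.32, adjusted p = 0.0198) and 1.44 (SE 0.29, adjusted p = 0.0123). Both had every 24 h GLT library above every condition 3 library, and 2 of 6 stood against 3.31% of all genes called higher. Jun and Junb also had groups that did not overlap (log2 1.07 and 0.84, adjusted p = 0.125 and 0.228). In the latter comparison 3 of 9 beta, 3 of 6 alpha, 1 of 4 delta and 2 of 8 stellate markers were lower at 24 h GLT, and their part was not tested.

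These calls also turned on single preparations and on the preparation term (without it, adjusted p from 0.0593 to 0.364 against condition 2 and 0.181 to 0.227 against condition 3). Scaled by library size alone, 0 of the 6 passed against condition 2, where the all-gene median then stood at 0.24, and Fosl1 and Fosl2 both missed the threshold against condition 3 without its preparation 2 library (adjusted p = 0.0557 for each). Against condition 3, Fosl1 was also lost with only the groups compared (0.0686), and Fosl2 with the ambiguous read share as a term (0.0842) and scaled by library size alone (0.0556). Without 1 preparation, the adjusted p ran from 0.0183 to 0.212 for Fos, from 0.111 to 0.236 for Fosl1, from 0.00195 to 0.159 for Fosl2 and from 0.0997 to 0.179 for Fosb against condition 2, and from 0.0793 to 0.150 for Fosl1 and from 0.0196 to 0.125 for Fosl2 against condition 3. Whether the effect of GLT differed between 24 h and 3 h was tested as an interaction, which is the same sum under both readings. For the 6 genes 0 passed, 0 had an unadjusted p below 0.05 and DESeq2 called 0, against 0.0716% of all genes called by edgeR. Of all genes, 1050 had an unadjusted p below 0.05 and DESeq2 called 109. The widest interval was that of Fos (log2 -1.20, 95% interval -2.75 to 0.34).

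**Figure D3:**
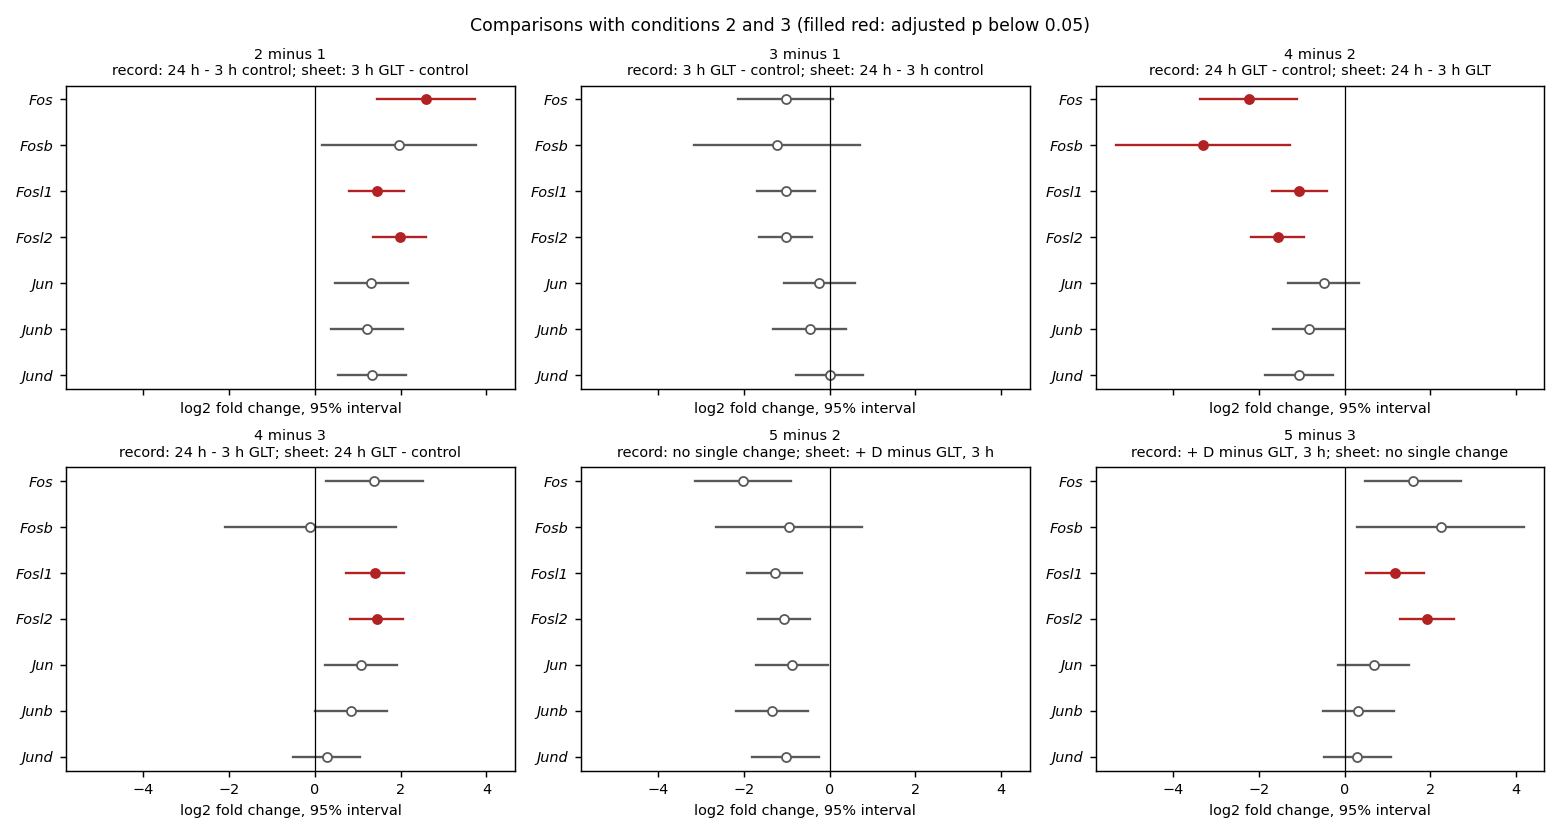
Fitted log2 fold changes with 95% intervals of the 7 genes in the 6 comparisons that use condition 2 or 3, each panel titled with its reading by the record and by the sheet, with filled red points where the adjusted p was below 0.05. Fos, Fosl1 and Fosl2 are filled on the positive side for condition 2 against 3 h control, where Fosb is not, and all 4 Fos genes are filled on the negative side for 24 h GLT against condition 2.

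At 24 h GLT with compound D the family lay below condition 2, and no difference from condition 3 passed. Against condition 2, 24 h GLT with compound D had lower levels of 5 of the 6 genes (Jun had an adjusted p of 0.0531), against 6.6% of all genes called lower. Fos was 12.2-fold lower (log2 -3.61, SE 0.56, adjusted p = 0.000919), Fosl2 6.57-fold (adjusted p = 7.5e-05), Fosl1 4.99-fold (adjusted p = 0.000318) and Junb 4.23-fold (adjusted p = 0.00422). Fosb, outside the 6, was 8.58-fold lower on low counts, with no overlap (log2 -3.10, SE 0.94, adjusted p = 0.0432). Its call held in 5 of 12 alternatives, and those that lost it included leaving out any 1 preparation (adjusted p from 0.0752 to 0.163). Of the cell type markers, 6 of 7 endothelial, 3 of 3 tested red cell, 2 of 9 beta, 1 of 4 duct and 1 of 8 stellate genes were lower too, 3 of 8 stellate and 2 of 9 beta genes were higher, and their part was not tested. Jund was 2.34-fold lower (adjusted p = 0.0428), a call lost without preparation 1 (0.0966), without preparation 3 (0.352), without the preparation term (0.0608) and with the ambiguous read share as a term (0.0652). Against condition 3, 0 of the 6 passed, 0 had an unadjusted p below 0.05 and DESeq2 called 0, with 0.716% of all genes called by edgeR. Of all genes, 1547 had an unadjusted p below 0.05 and DESeq2 called 394. The differences there were 0.00 for Fos (95% interval -1.09 to 1.09), 0.13 for Fosl1 (-0.55 to 0.82) and 0.28 for Fosl2 (-0.33 to 0.90). If the sheet is right, condition 3 is the 24 h control, and if the record is right, condition 2 is.

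At 3 h the effect of compound D under GLT also has 2 readings. By the record it is condition 5 against condition 3, where Fosl1 (log2 1.18, SE 0.32, adjusted p = 0.0375) and Fosl2 (log2 1.93, SE 0.29, adjusted p = 0.00235) rose, 2 of 6 against 3.99% of all genes called higher. Of the cell type markers, 4 of 7 endothelial and 3 of 3 tested red cell genes were higher as well, 5 of 8 stellate, 2 of 6 alpha and 1 of 4 delta genes were lower, and their part was not tested. Without the preparation 2 library of condition 3, Fosl1 no longer passed (adjusted p = 0.0692), and leaving out any 1 preparation also ended its call. Both calls were lost without the preparation term (0.242 for Fosl1 and 0.0545 for Fosl2), with the ambiguous read share as a term (0.111 and 0.0760) and with only the groups compared (0.299 and 0.135). Fosl2 was also lost without preparation 1 (0.108) and without preparation 3 (0.0758). By the sheet it is condition 5 against condition 2, where all 6 genes were lower in 3 of 3 preparations. How many of all tested genes were lower in 3 of 3 there was not counted. There 0 of 6 passed in edgeR, against 0.493% of all genes called by edgeR. All 6 had an unadjusted p below 0.05, as did 849 of all genes. DESeq2 called 3 of the 6 and 165 of all genes. The largest differences among the 6 were -2.02 for Fos (SE 0.52, adjusted p = 0.149) and -1.36 for Junb (SE 0.39, adjusted p = 0.234). Whether the effect of compound D differed between 24 h and 3 h was tested as an interaction under each reading. By the record Fos, Fosl1 and Fosl2 had a lower effect at 24 h than at 3 h (log2 differences of -2.98, -2.44 and -3.08), 3 of 6 against 3.94% of all genes called lower. By the sheet 0 of the 6 passed, 0 had an unadjusted p below 0.05 and DESeq2 called 0, against 0.0318% of all genes.

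The single library of GLT with compound E at 3 h had no replicate and allowed no test. Its Fos level was 73.3 CPM, against 8.37 CPM in 3 h control, 9.70 CPM in GLT with compound D, 68.7 CPM in condition 2 and 2.97 CPM in condition 3 of the same preparation. Fosl2 was at 46.3 CPM, against 14.3, 24.2, 56.9 and 7.12 CPM in the same order. Junb was at 448 CPM, against 142, 138, 352 and 115 CPM. Jun, at 119 CPM, was 1.60-fold above the condition 2 library, and Jund, at 183 CPM, was 0.968 times that library. Across the 7 genes the library lay 2.35-fold to 8.76-fold above 3 h control of its preparation and 0.814 to 2.24 times the condition 2 library.

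The 6 genes shared much of their variation over the 21 libraries. On log2 CPM centred within preparation, Pearson's r of the 15 pairs ran from 0.52 (Fosl2 with Jund) to 0.92 (Fosl1 with Junb), with a median of 0.82. Fos lay closest to Fosl2 (0.91) and Jun to Junb (0.91). These values describe libraries that share conditions, pools and depth. In the 18 libraries of conditions 1 to 6, condition took 76.4% of the variance of Fosl2, 70.0% of Fos, 63.7% of Jund, 59.1% of Fosl1, 49.5% of Jun and 46.2% of Junb. Preparation took most in Junb (37.1%) and Fosl1 (32.6%) and least in Jund (12.2%). Junb in preparation 3 had a geometric mean of 364 CPM over these conditions, against 141 and 159 CPM in preparations 1 and 2.

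**Figure D4:**
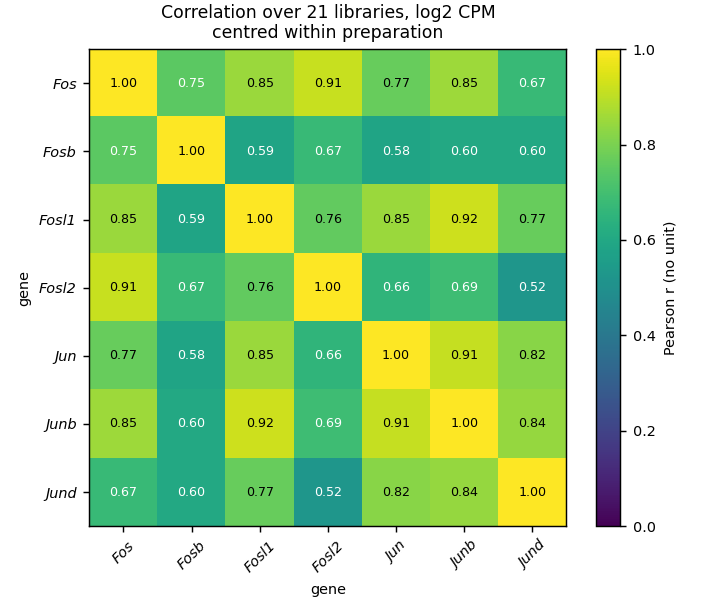
Pearson correlation of log2 CPM, centred within preparation, between the 7 genes over 21 libraries, with the value printed in each cell. The pairs of the 6 genes found by symbol range from 0.52 to 0.92, and Fosb has values from 0.58 to 0.75 with them.

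The tested genes most like each member over the same 21 libraries were taken by the highest r. For Fos these were the ephrin receptor gene Epha2 (0.94), Csrnp1 (0.94), the growth factor gene Bmp2 (0.94), the immediate early nuclear receptor gene Nr4a2 (0.94) and Cd83 (0.93). Fosl2 lay closest to the related nuclear receptor gene Nr4a3 (0.97), then to Ndel1, Slc23a2 and the signal transducer gene Stat3 (0.94). Fosl1 lay closest to RGD1563982 (0.95), Csrnp1 and Dusp6, a phosphatase gene for ERK kinases (0.94), and Jun to Dusp1, another MAPK phosphatase gene (0.93), followed by Arid5a and Junb. Junb was closest to the small Maf gene Maff (0.97), Jund to Znrd1 (0.92) and the immediate early gene Ier2 (0.92), and Fosb to the zinc finger immediate early gene Egr1 (0.95). The likeness is a description with no test.

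Partners of AP-1 were taken from a list of other basic leucine zipper genes, of which 20 of 22 were found and tested. Under 24 h GLT compound D lowered 3 of them, against 2.12% of all genes called lower, and raised 0. Atf3, a stress-induced factor that pairs with Jun proteins, had 43.0, 29.0 and 46.5 CPM under GLT and 14.6, 8.90 and 7.91 CPM with compound D. No library overlapped (log2 -1.89, SE 0.32, adjusted p = 0.00498). Cebpd, a C/EBP factor, fell from a mean of 52.3 to 19.4 CPM (log2 -1.46, SE 0.33, adjusted p = 0.0246). Crem, which includes the cAMP-induced repressor ICER, fell from 287 to 141 CPM (log2 -1.05, SE 0.26, adjusted p = 0.0348). The medians were -0.40 for the list and 0.01 for all tested genes. The alternative fits were not followed gene by gene for the partners, nor for the kinases and targets below. Without preparation 1, 0 of all genes were called for compound D against 24 h GLT. Every call from these lists in that comparison was therefore lost there. With compound E against GLT 0 of 20 passed, and Crem had 286 CPM against 287 CPM. Between the compounds 4 of 20 were higher with compound E, against 1.83% of all genes, and 0 lower: Cebpd (log2 2.09, SE 0.37), Atf3 (1.93, SE 0.35), the stress factor gene Ddit3 (1.61, SE 0.33) and Cebpb (2.07, SE 0.47). Their adjusted p-values ran from 0.00733 to 0.0274.

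Of 27 kinases and regulators upstream of AP-1 (29 listed), compound D lowered 2 at 24 h, against 2.12% of all genes called lower, and raised 0. Mapkapk2, the MK2 kinase downstream of p38, had 276, 297 and 285 CPM under 24 h GLT and 93.1, 118 and 123 CPM with compound D, with the smallest adjusted p of the list (log2 -1.37, SE 0.18, adjusted p = 0.000915). With compound E it was at 355 and 271 CPM, a change of 0.17 from GLT (SE 0.20, adjusted p = 0.699) and of 1.54 from compound D (SE 0.20, adjusted p = 0.00143). Elk3, an ETS factor that works with serum response factor, fell from 31.2 to 19.1 CPM (log2 -0.71, SE 0.15, adjusted p = 0.0182). The list had a median of -0.11, beside 0.01 for all tested genes, and its other genes, the MAP kinases among them, did not pass. In condition 2 Mapkapk2 was at 544, 568 and 414 CPM, against a mean of 203 CPM in 3 h control (log2 1.34, SE 0.18, adjusted p = 0.000659). Map3k11 was the other of the 2 of 27 that rose there, against 1.96% of all genes called higher (log2 0.62, SE 0.14, adjusted p = 0.0314).

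Of 38 genes known as AP-1 targets in other tissues (40 listed), 4 fell with compound D at 24 h, against 2.12% of all genes called lower, and 0 rose. Mmp13, a collagenase gene with a well-known AP-1 site, had 144, 68.1 and 159 CPM under GLT and 23.2, 4.62 and 26.4 CPM with compound D (log2 -2.81, SE 0.58, adjusted p = 0.0146). Odc1, the polyamine synthesis enzyme gene, went from 534 to 261 CPM (log2 -1.09, SE 0.23, adjusted p = 0.0178). The cytokine gene Lif had 4.79, 3.32 and 37.4 CPM under GLT and 2.60, 0.173 and 6.43 CPM with compound D. It was low in preparations 1 and 2, and its groups overlapped (log2 -2.02, SE 0.53, adjusted p = 0.0472). The list's median was -0.18, beside 0.01 for all tested genes. With compound E against GLT 0 of 38 passed, and between the compounds Plaur, Mmp13 and Odc1 were among those higher with compound E (log2 from 1.21 to 3.12, adjusted p from 0.00943 to 0.0210). Mmp13 was at 185 and 93.8 CPM with compound E.

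Not every target that fell with compound D was high in condition 2. Against 3 h control 3 of 38 targets rose, against 1.96% of all genes called higher, namely the cyclin gene Ccnd1 (log2 0.81, SE 0.15, adjusted p = 0.0102), the growth factor gene Hbegf (1.42, SE 0.33, adjusted p = 0.0378) and Odc1 (0.93, SE 0.23, adjusted p = 0.0499). Mmp13, at 23.4, 26.0 and 20.0 CPM in condition 2, was higher at 24 h GLT (log2 2.33, SE 0.57, adjusted p = 0.0225), where Fos, Fosl1 and Fosl2 were lower. Hmox1, the heme oxygenase gene, was also higher there (log2 1.34), and Ccnd1 was lower (-0.57). Of the partners, Crem (1.76, SE 0.26), Mafk (0.87, SE 0.19) and Atf3 (1.36, SE 0.32) rose in condition 2 against 3 h control. In all, 4 of 20 partners rose there, against the same 1.96%, and 1 fell. From 3 h to 24 h under GLT plus compound D, Crem (-1.33, SE 0.26) and Mapkapk2 (-1.05, SE 0.18) fell, while Hmox1 (2.63, SE 0.34) and the quinone reductase gene Nqo1 (1.35, SE 0.33) rose and Spp1 fell (-1.85, SE 0.38).

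**Figure D5:**
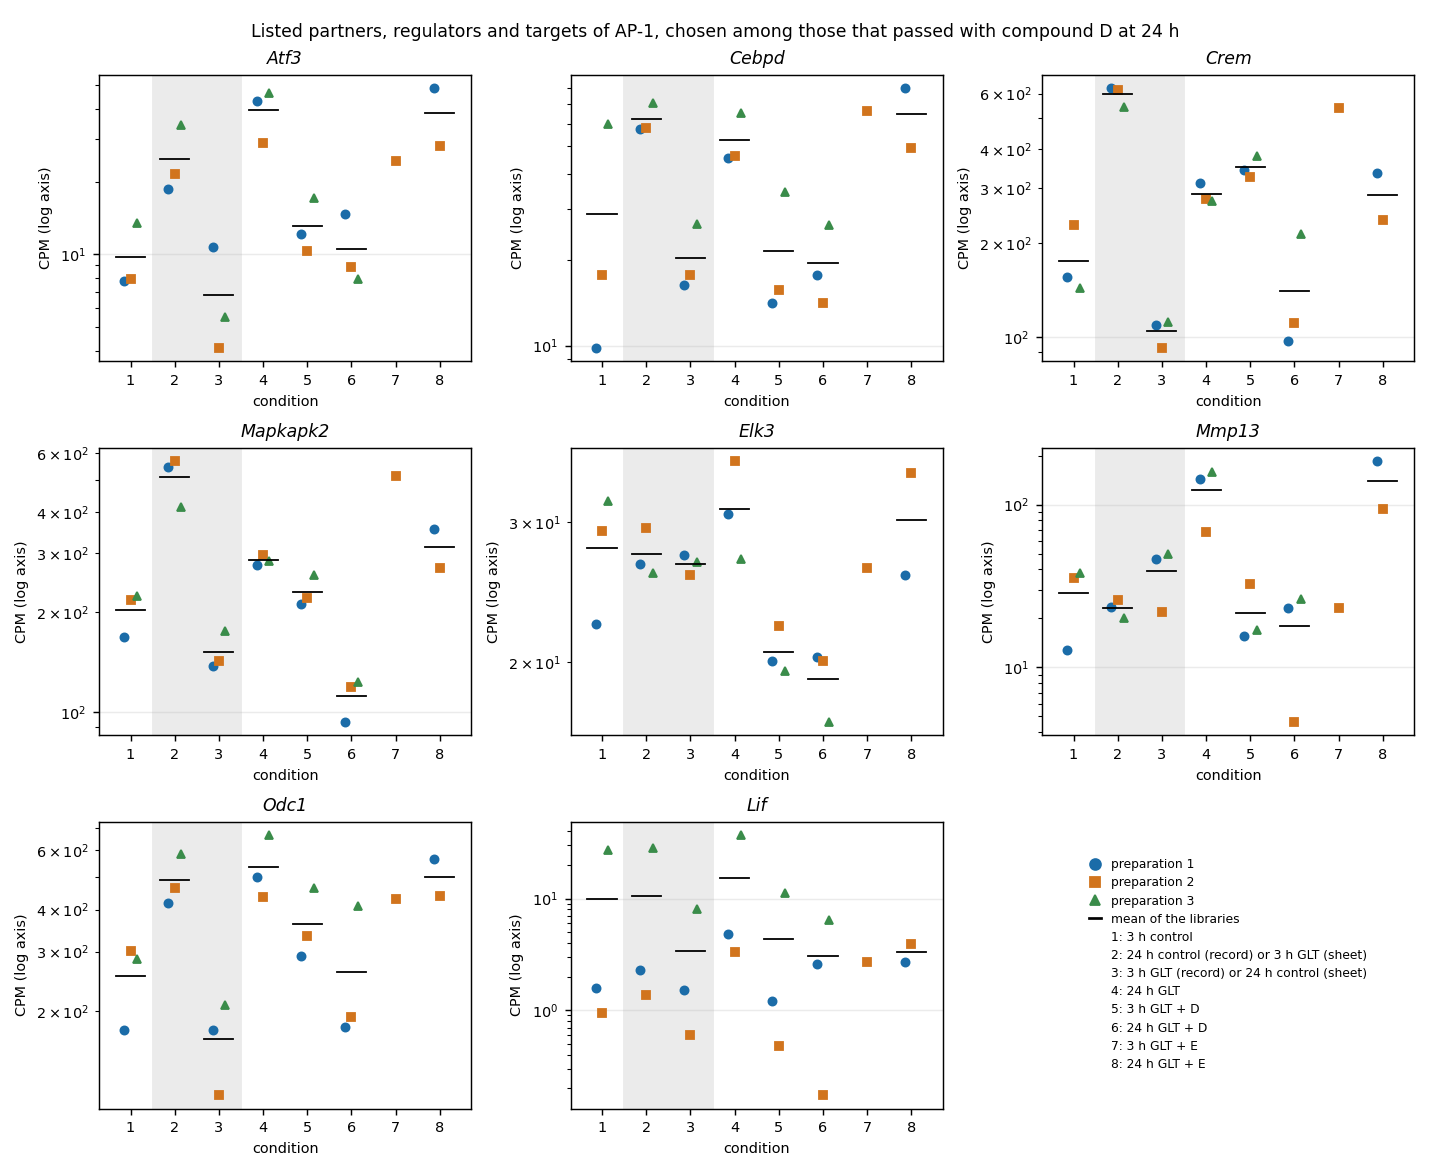
CPM (log axis) by condition of listed partners, regulators and targets among those that passed with compound D at 24 h, with 1 marker per library shaped by preparation and a bar at each condition's mean; conditions 2 and 3 are shaded. Mapkapk2 runs from 93.1 to 123 CPM in condition 6 and from 276 to 297 CPM in condition 4, and Mmp13 is lower in condition 2 than in condition 4.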

How the data were processed

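RNA was sequenced from 21 islet libraries, paired at 100 bases. Per the labels, the authors used TopHat2 2.0.3, Bowtie2 2.0.0 and HTSeq with the rn5 build, and the deposited values are raw counts per gene, not normalized. The strand setting and the annotation are not given in the sources used here. The 5 rows that name no gene were left out: their shares were 10.3% to 18.7% for reads outside genes, 4.92% to 23.4% for reads not aligned uniquely and 0.161% to 2.32% for ambiguous reads.

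All 21 libraries were fitted with edgeR 4.0.16 in R 4.3.3, on condition and preparation with TMM factors, after filterByExpr had kept 12576 genes. The quasi-likelihood test was 2-sided, p-values were Benjamini-Hochberg adjusted over all 12576 genes, and a gene passed below 0.05. SE is the standard error of the log2 fold change, and the intervals are at 95%. In no comparison was it counted how many of all tested genes shared a direction over the preparations or had groups without overlap. Such statements on members therefore describe their libraries and have no share of all genes beside them. The preparation term was used because 1 islet pool was divided over the conditions. Residuals of a fit without it correlated at 0.205 on average within a preparation (0.0698, 0.183 and 0.425 in preparations 1, 2 and 3) and at -0.158 between preparations. No library duplicated another of its condition (lowest chi-square per degree of freedom 27.7).

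The family, the gene lists and the tests were chosen with earlier results of these data known. Every member is named. From each list the text takes up to 4 genes that passed in a comparison, by smallest adjusted p, or, with none, up to 2 by abundance, and not every such gene is named: a few listed genes are counted but not reported here. For likeness, the 5 genes with the highest r were taken, on log2 CPM with a prior count of 2. Comparisons that use condition 2 or 3 are given under both readings of the labels. Alternatives were RLE scaling, library size alone, no filter, DESeq2 1.42.0, no preparation term, the ambiguous read share as a term, only the groups compared, and leaving out each preparation or 1 library. The fit of the 15 undisputed libraries, the leaving out of the condition 3 library of preparation 2, the match of Fosb and the difference of the compound D effect between times were added after seeing the data. The fit was tested on simulated data with known changes for compound D against 24 h GLT, compound E against it, and compound E against compound D. It found 35%, 24% and 30% of the 2-fold changes, in that order, and 81%, 78% and 75% of the 4-fold changes. Most 2-fold changes were thus missed in each.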

Additional observations from a re-analysis of the deposited data

Results flagged for a closer look

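The single library of 3 h GLT with compound E, which entered no test of its own, was above every 3 h control library for 4 of the 6 genes: Fos at 73.3 CPM, Fosl2 at 46.3 CPM, Jun at 119 CPM and Jund at 183 CPM. The highest 3 h control libraries were at 33.3, 40.9, 91.8 and 92.1 CPM, all from preparation 3. Fosl1 and Junb, at 5.52 and 448 CPM, were below their highest control library (9.10 and 608 CPM). How many of all tested genes had this library above every 3 h control library was not counted. The 4 of 6 therefore cannot be set against a share of all genes.

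The effect of compound D under GLT differed between 24 h and 3 h for 3 genes when conditions 2 and 3 are named by the record, by an interaction term in edgeR's quasi-likelihood test with Benjamini-Hochberg adjustment. The difference, 24 h minus 3 h on the log2 scale, was -2.98 for Fos (SE 0.75, adjusted p = 0.0251), -2.44 for Fosl1 (SE 0.45, adjusted p = 0.00492) and -3.08 for Fosl2 (SE 0.41, adjusted p = 0.00081), against 3.94% of all genes called lower. By the sheet 0 of the 6 passed, 0 had an unadjusted p below 0.05 and DESeq2 called 0, against 0.0318% of all genes, with values of 0.64 for Fos (95% interval -0.90 to 2.18), 0.01 for Fosl1 and -0.08 for Fosl2 (95% interval -0.94 to 0.77). The interaction therefore depends on which source names the 6 disputed libraries correctly, and without 1 preparation the adjusted p by the record ran from 0.0908 to 0.151 for Fos, from 0.0378 to 0.0715 for Fosl1 and from 0.00247 to 0.0446 for Fosl2. By the record Fos also missed the threshold without the preparation term (0.135), without the condition 3 library of preparation 2 (0.0610), scaled by library size alone (0.0515) and with the ambiguous read share as a term (0.0693), and Fosl1 missed it without the preparation term (0.101).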

How the results depend on the processing

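Counts of the 6 genes that passed, out of 6, were compared over 14 comparisons, and the compared counts do not say which genes passed. RLE scaling and no filter kept every count within 1.5 times the first. With library size alone the count was 1 for compound D against 24 h GLT, 1 for compound E against compound D, 0 for condition 2 against 1, 0 for condition 4 against 2 and 1 for condition 4 against 3. Of all genes, 215, 236, 67, 633 and 292 were called in these fits, in that order. DESeq2 gave 3 for compound D against 24 h GLT and 3 for compound D at 24 h against 3 h. It gave 5 for condition 2 against 1, 1 for 3 against 1 and 4 for 4 against 2. For condition 5 against 3 it gave 3, for 5 against 2 also 3, and for 6 against 2 it gave 6. The DESeq2 calls over all genes were 908, 1320, 581, 389, 1582, 1425, 165 and 2130, in that order. With the ambiguous read share as a term the count was 0 for compound D against 24 h GLT, 1 for compound E against compound D, 1 for condition 4 against 3 and 0 for condition 5 against 3. With that term 408, 193, 247 and 93 of all genes were called, in the same order. With no replicate block, that is without the preparation pairing, the count was 0 in the 7 comparisons that had calls other than condition 6 against 2, where it was 4. Those 7 fits called 149 to 604 of all genes, and that of condition 6 against 2 called 1035. With only the groups compared the counts were 1 (compound D against 24 h GLT, where the gene was Junb), 0 (compound E against compound D) and 2 (compound D, 24 h against 3 h), then 6 for condition 2 against 1, 5 for 4 against 2, 1 for 4 against 3, 0 for 5 against 3 and 6 for 5 against 2. The same fits called 278, 0, 1928, 429, 3293, 358, 0 and 340 of all genes, in that order. In the 15 undisputed libraries the count was 1 for compound D against 24 h GLT and 1 for compound E against compound D. There 220 and 184 of all genes were called. Without the condition 8 library of preparation 1 compound E against compound D gave 0, and without the condition 3 library of preparation 2 condition 4 against 3 gave 0 and 5 against 3 gave 1. The cause of these shifts was not tested.

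Leaving out each preparation in turn gave 0 to 0 for compound D against 24 h GLT, 0 to 2 for compound E against it, 0 to 3 for compound E against compound D, 0 to 1 for compound D at 24 h against 3 h, 0 to 2 for condition 2 against 1 and for 4 against 2, 0 to 1 for 4 against 3 and for 5 against 3, and 4 to 5 for 6 against 2. Over all genes, compound D against 24 h GLT gave 513 calls with the full fit, 908 with DESeq2 and 215 with library size alone. Without preparations 1, 2 and 3 in turn it gave 0, 234 and 87 calls over all genes. The same fits gave 9, 798 and 70 for compound D at 24 h against 3 h, and 7, 356 and 57 for condition 2 against 1. They gave 21, 1222 and 83 for 4 against 2, and 15, 455 and 90 for 4 against 3. For 5 against 3 they gave 7, 1368 and 76, and for 6 against 2 338, 1675 and 491. No value called in either fit changed sign under an alternative.

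Fosb rests on as few as 7 reads per library. Only 3 preparations were made, with 2 libraries for compound E at 24 h and 1 at 3 h, and an adjusted p above 0.05 does not show that a gene did not change.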
